A study of Mus musculus with 6 samples.

Results

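The type I interferon response genes and RNA sensors of mouse CD4+ T cells were followed through RNA sequencing of cells exposed to a synthetic miR-155 oligonucleotide. The set held 40 genes listed by symbol, of which 34 were found among the 13177 RefSeq transcript rows of the count table, 1 row per gene. The 6 genes without a matched row were Ifit3b, Mx1, Oas1g, Ddx58 (which encodes the sensor RIG-I), Xaf1 and Ifi203, and they were not analysed here. Of the 34 genes, 26 passed the filter on low counts and were tested, and 8 did not pass it.

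One group comprised 3 libraries of cells collected 8 h into treatment with the oligonucleotide, and the control group 3 libraries labelled as 0 h. CD4+ T cells are helper T lymphocytes, and miR-155 is a microRNA induced in activated lymphocytes. The treatment label names the oligonucleotide for the controls too, no 8 h library without it was analysed here, and time and exposure therefore cannot be told apart. The 8 h samples are described as CD5+ in one label and as CD4+ in another. No strain, age or sex was given in the labels, nor how the oligonucleotide was delivered, nor whether replicates came from separate animals or cultures. The p-values therefore reflect spread among libraries that may be technical repeats.

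Type I interferons are secreted when a cell detects viral or misplaced nucleic acid. Sensors such as RIG-I and MDA5 bind double-stranded RNA in the cytosol and signal to factors that switch on interferon genes. The secreted interferon binds the receptor IFNAR, and the kinases JAK1 and TYK2 activate STAT2, which acts with IRF9 in a complex that binds the interferon-stimulated response element in target promoters. The induced genes include the sensors themselves, enzymes that degrade or modify viral RNA, antiviral GTPases and feedback inhibitors. T cells carry the receptor and respond in this way.

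The sequences below show the strands of the microRNA, the seed match found among the genes, and examples of the response element in their promoters. The first pair gives both mature strands of mouse miR-155 from RefSeq (chromosome 16, GRCm38.p6, plus strand, chr16:84714143-84714165 and chr16:84714182-84714202), with the seed, bases 2 to 8, in capitals.
mmu-miR-155-5p: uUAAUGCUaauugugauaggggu
mmu-miR-155-3p: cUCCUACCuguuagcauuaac
Which of these strands, or what sequence, the oligonucleotide carried is not given in the sources used here.

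The 7 bases complementary to the seed of miR-155-5p, AGCATTA, were searched in the longest 3' UTR that GENCODE M21 annotates for each gene. All 34 genes had such a UTR, and 1 of them, or 2.94%, held a match, against 570 of 7941 tested genes with a UTR, or 7.18%. The match lay in the 3' UTR of Samhd1 (chr2:157098825-157098847, GRCm38, minus strand), which encodes a dNTP triphosphohydrolase that restricts viral reverse transcription.
Samhd1 3' UTR, seed match in capitals: ctgtaagaAGCATTAtctggtgt
Samhd1 had 1, 5 and 1 counts at 8 h and 4, 1 and 2 counts in controls, too few to be tested. None of the 26 tested genes had a match, so the seed of miR-155-5p did not divide them.

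Promoters from 250 bases before to 50 bases after an annotated start were taken from RefSeq (GRCm38.p6) and were matched for 26 of the 34 genes. The core of the interferon-stimulated response element, searched on either strand as GAAA, any 2 bases and GAAA again, occurred in 15 of these 26 genes, or 57.7%. They occurred in 263 of the 6459 tested genes with a promoter, or 4.07%, and in 3.99% of all 27025 genes with one. The letters TTCNNNGAA, the core of the gamma-activated site, occurred in 9 of the 26 genes, or 34.6%, and in 8.52% of the tested genes with a promoter. A match is a description of letters and was not tested for binding. Neighbouring matches overlapped in several promoters. In that of Isg15, 3 matches of the first motif each overlapped the next. Examples on the strand of the gene, with the motif in capitals, are given for 5 genes whose groups did not overlap or whose fitted differences were among the 6 largest, and for Ifit3, the neighbour of Ifit2.
Isg15 (chr4:156200874-156200897, minus strand): ggaaaagGAAACCGAAAcagaaaa
Ifih1 (chr2:62646207-62646230, minus strand): gagaatcGAAACAGAAAccgatct
Irgm1 (chr11:48871428-48871451, minus strand): agaaataGAAACCGAAActgattc
Bst2 (chr8:71537580-71537603, minus strand): ggaaaatGAAACTGAAAggctgca
Gbp3 (chr3:142559992-142560015, plus strand): gacacagTTTCAGTTTCtatttcc
Ifit3 (chr19:34583366-34583389, plus strand): tggtaagTTTCACTTTCctcttct
In Gbp3 and Ifit3 the motif ran in reverse orientation, so the capitals show its complement. The Ifih1 match began 33 bases after the annotated start, within the transcribed region, and the others lay upstream of their starts. No match of the first motif was found in the windows of Ifit2, Irf7 or Irf9. The 11 tested genes with the element had a median fitted log2 fold change of 0.47, 8 h over control, and the 9 tested genes with a promoter but no match one of 1.07.

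**Figure D1:**
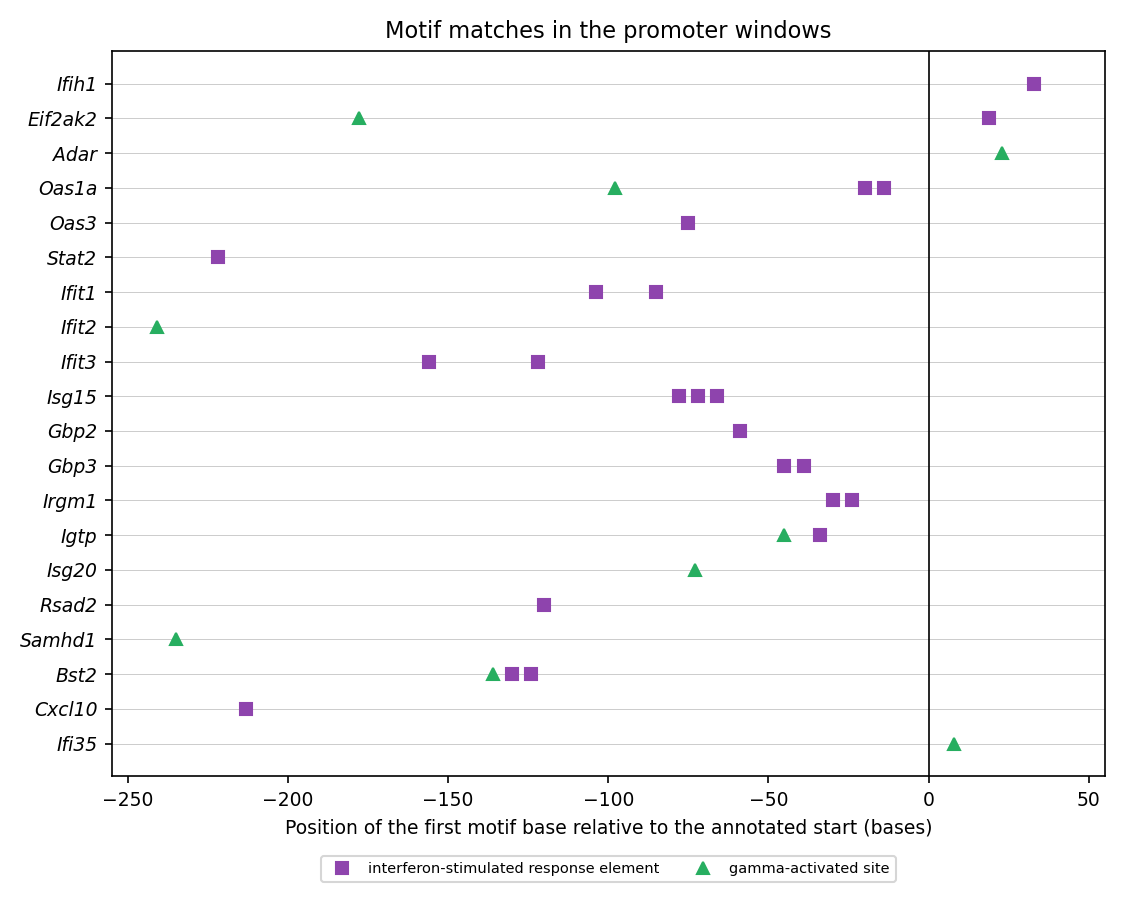
Positions of motif matches in the promoter windows of the interferon genes. The horizontal axis gives the first base of the motif relative to the annotated start in bases, squares mark the interferon-stimulated response element and triangles the gamma-activated site, and genes without a match or without a window are left out. The matches in Isg15, Irgm1, Igtp, Gbp2 and Gbp3 lay between the start and position -78, whereas those in Cxcl10 and Stat2 lay at -213 and -222.

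Libraries held 8536899, 13675127 and 6243803 counts at 8 h and 6455076, 4564010 and 12303358 counts in controls 1 to 3. Levels are given as CPM, counts scaled to a common library total. Actb had 3 to 5 counts at 8 h and 1 to 4 in controls, and Gapdh 1 to 11 and 2, which are low values for such abundant transcripts. It is thus uncertain that rows hold usual per-gene counts, and every level and fold change carries that limit. The 15 T cell markers checked were all above 0 in every library and took 0.579% to 1.39% of counts at 8 h and 0.300% to 2.09% in controls. Yet only 10 of them passed the filter, and 5 averaged under 10 counts a library. A single marker gave 162085 of their 216742 counts in control 3. Cd4 itself had 5 to 9 counts at 8 h and 6 to 10 in controls. In these bulk samples, fewer cells of a type and less RNA per cell cannot be told apart. Markers of natural killer and CD8 T cells, all 10 in the table, took 0.0271% to 0.0436% of counts at 8 h and 0.146% to 0.420% in controls. These summed shares did not overlap, but a single marker reached 25368 counts in 1 library, against sums of 27114, 6679 and 30790 in controls. Of the 10 markers, 4 had fitted values above 0 and 6 below, and groups did not overlap for 2, or 20%, against 10.9% of all tested rows. Klrb1c was at 0 in 1 of the 8 h libraries. Markers of myeloid cells (14 of 14) took 0.00734% to 0.0472% at 8 h and 0.00909% to 0.414% in controls. A single marker gave 18565 of the 18903 counts in control 2. Adgre1, which encodes F4/80, was at 0 in 2 of the 8 h libraries. Csf1r was at 0 in control 1, and Cybb and C1qc were each at 0 in 1 control. B cell markers (8 of 8) took 0.00537% to 0.0105% at 8 h and 0.00385% to 0.0159% in controls, with Pax5 at 0 in control 1. The part of these cells in the results below was not tested.

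The comparison asked whether interferon response genes differed at 8 h of miR-155 treatment. None of the 26 tested genes passed edgeR's quasi-likelihood test at an adjusted p of 0.05, and the background was also 0% of the 8308 rows tested. The lowest adjusted p among them was 0.456, for Oas2, and the highest 0.996. At an unadjusted p under 0.05 there were 2 of 26 genes, Oas2 and Gbp3, or 7.69%, where 8.53% of all tested rows reached that p (4.51% of rows higher at 8 h and 4.02% lower). Oas2 was the higher and Gbp3 the lower one. As an alternative, DESeq2 called 2 of 26, Oas2 and Ifih1, both higher at 8 h, or 7.69%, with 4.8% of all tested rows called, 2.34% higher and 2.47% lower. It gave no p for Gbp3 and Ifi27l2a, which it set aside as outliers. On counts simulated at the spread of these libraries, most of DESeq2's calls were genes simulated as unchanged. That share depends on the number and size of the changes simulated, so it does not say which DESeq2 calls given here are false. Each of them remains uncertain. limma-voom called 0 of 26 and 0% of all tested rows. Its unadjusted p was under 0.05 for 4 of the 26 and for 403 of all 8308 tested rows.

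Fitted log2 fold changes of the 26 genes were above 0 for 16 and below 0 for 10, against 51.3% of all tested rows above 0. Their median was 0.52, against 0.06 over all tested rows. Leaving out 8 h replicate 2 gave a median of -0.29, and leaving out control replicate 2 gave 0.79. Standard errors of the single genes ran from 1.36 to 2.38 on the log2 scale. In 6 of the 26 genes, or 23.1%, the libraries of one group all lay above those of the other, where 10.9% of all tested rows did so. All 8 h libraries were above all controls for 4 genes, Ifih1, Ifit2, Irgm1 and Isg15, or 15.4% against a background of 6.23%. All were below for Gbp3 and Irf9, or 7.69% against 4.65%. Because the 26 genes had first to pass a filter on low counts, these shares describe them and carry no test.

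**Figure D2:**
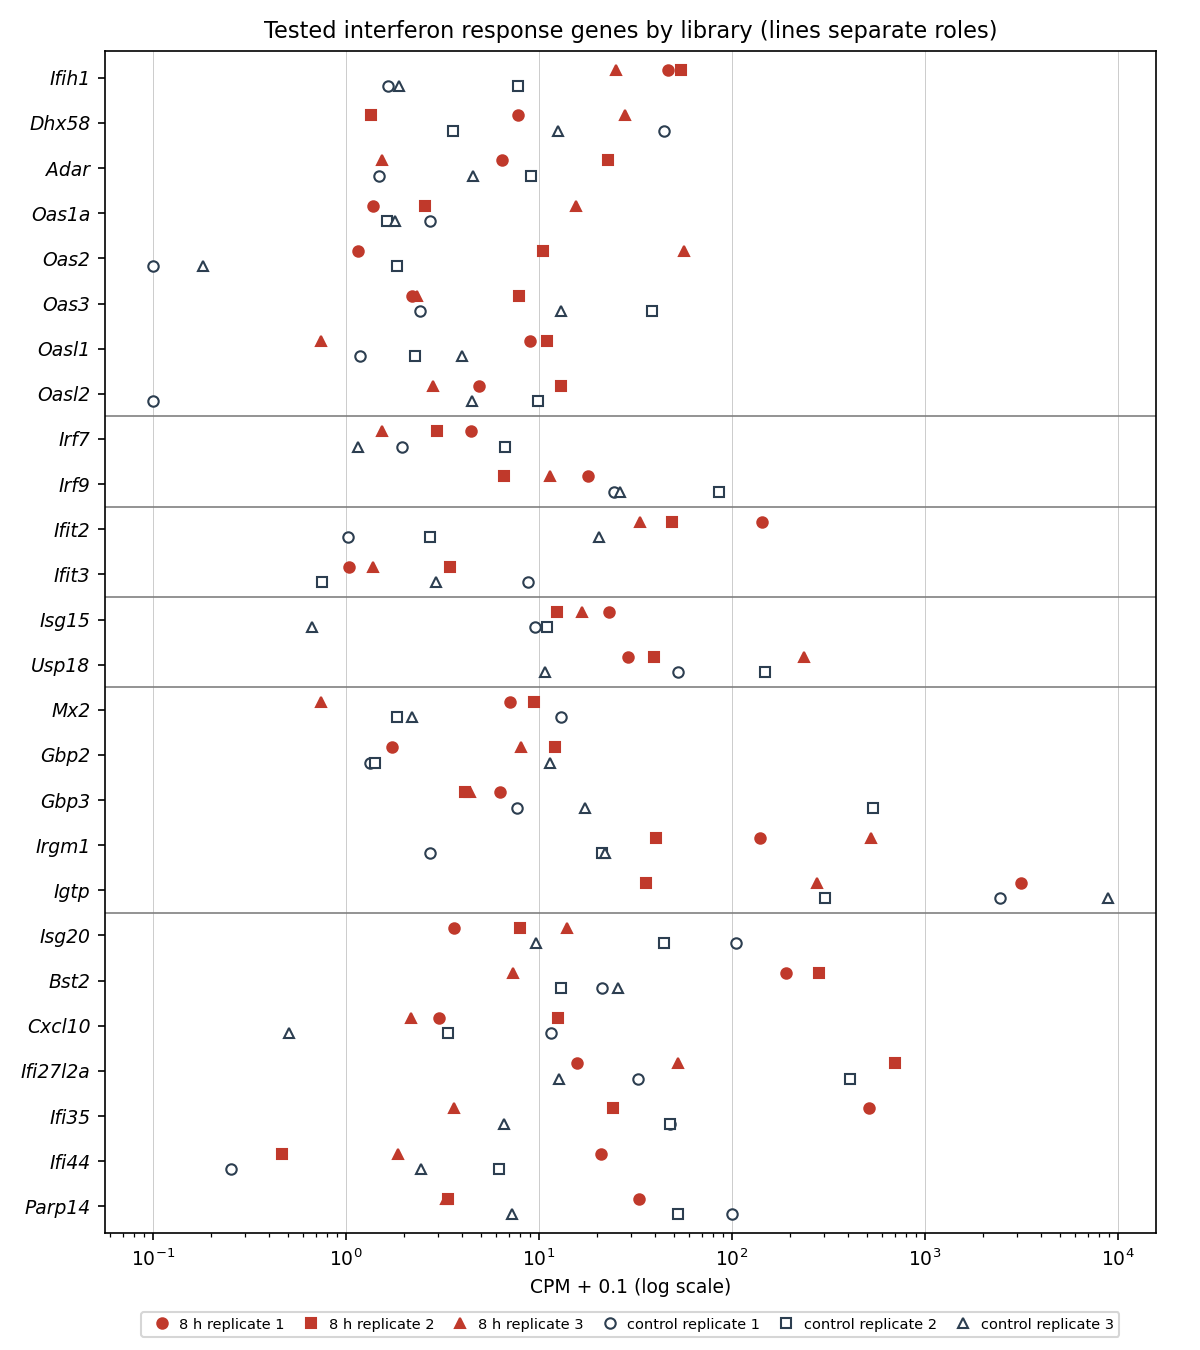
Levels of the 26 tested interferon genes in each library, as CPM + 0.1 on a log axis, with filled red symbols for the 3 libraries at 8 h and open symbols below them for the 3 controls, and lines between groups of genes with one role. The 8 h symbols of Ifih1, Ifit2, Irgm1 and Isg15 all lie right of the controls, those of Irf9 and Gbp3 all lie left of them, and those of the other 20 genes overlap.

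Of 12 genes for RNA sensors and RNA-binding enzymes, 10 were in the table and 8 were tested, 6 with fitted values above 0 and 2 below. Ifih1 (chromosome 2, 62595618 to 62646255, GRCm38.p6) encodes MDA5, the sensor of long double-stranded RNA. It had 396, 741 and 156 counts at 8 h and 10, 35 and 22 counts in controls. Its level was 46.4, 54.2 and 25.0 CPM in the 8 h libraries, against 1.55, 7.67 and 1.79 CPM in controls. Every 8 h library stood above every control. The means were 41.9 ± 15.1 CPM at 8 h and 3.67 ± 3.47 CPM in controls (SD, n = 3 each). Ifih1 had a log2 fold change of 3.54 ± 1.87 (SE; edgeR adjusted p = 0.609; DESeq2 adjusted p = 0.0334). Over all alternatives its adjusted p ran from 0.0334 to 0.998 and its log2 fold change from 3.23 to 4.45.

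Dhx58 encodes LGP2, the third member of the RIG-I-like family, which lacks the signalling domains of the other two. It had 66, 17 and 173 counts at 8 h and 287, 16 and 153 in controls, or 7.73, 1.24 and 27.7 CPM against 44.5, 3.51 and 12.4 CPM. The groups overlapped, and the log2 fold change was -1.01 ± 1.71 (SE; edgeR adjusted p = 0.898), which became 0.37 without control replicate 1. LGP2 and MDA5 transcripts thus had fitted values of opposite sign, a difference between genes that was not tested.

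Zbp1, a sensor of Z-form nucleic acid that can trigger necroptosis, had 19, 13 and 2 counts at 8 h and 5, 2 and 16 in controls. Eif2ak2, which encodes PKR, the double-stranded RNA-dependent kinase that halts translation, had 7, 5 and 3 counts at 8 h and 2, 2 and 5 in controls. Neither reached the counts needed for a test, and at this depth no difference was detectable. Adar, the enzyme that edits adenosine in double-stranded RNA, had 6.33, 22.7 and 1.44 CPM at 8 h and 1.39, 8.98 and 4.47 CPM in controls, in overlapping groups.

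The oligoadenylate synthetases make a second messenger that activates RNase L when they bind double-stranded RNA. Oas2 (chromosome 5, 120730333 to 120749886) had 9, 142 and 351 counts at 8 h and 0, 8 and 1 counts in controls. Its level was 1.05, 10.4 and 56.2 CPM at 8 h, against 0, 1.75 and 0.0813 CPM in controls. The groups overlapped, since 8 h replicate 1 lay below control 2, while the other 2 libraries at 8 h lay above every control. Oas2 had the largest fitted difference of the set, a log2 fold change of 5.23 ± 2.02 (SE; edgeR adjusted p = 0.456; DESeq2 adjusted p = 0.0223). The fitted value rested on few control counts and was 3.49 without 8 h replicate 3, and 8.26 when control replicate 2 was left out. Its adjusted p ran from 0.0223 to 0.998 over the alternatives.

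Oas3, whose gene lies 3.21 kb from that of Oas2, had 2.11, 7.75 and 2.24 CPM at 8 h and 2.32, 38.6 and 12.9 CPM in controls. Its log2 fold change was -2.10 ± 1.73 (SE; edgeR adjusted p = 0.750), opposite in sign to that of its neighbour. It was -3.05 without 8 h replicate 2, and -1.09 when control replicate 2 was left out. Oas1a had 1.29, 2.49 and 15.5 CPM at 8 h and 2.63, 1.53 and 1.71 CPM in controls, so that only 8 h replicate 3 stood apart, and without it the log2 fold change was -0.09 against 1.49 with all libraries. Oas2 and Oas1a were highest in the same library, 8 h replicate 3, whereas Oas3 was highest in control 2. Reads of Oas1a cannot be told apart with certainty from those of its close copies, since the treatment of reads with several matches is not given in the sources used here.

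Oasl1 and Oasl2, related proteins, lie 10.9 kb apart. Oasl1 had 8.90, 11 and 0.641 CPM at 8 h and 1.08, 2.19 and 3.90 CPM in controls. Oasl2 had 4.80, 12.9 and 2.72 CPM at 8 h and 0, 9.86 and 4.39 CPM in controls. In both, 8 h replicate 2 was the highest library and the groups overlapped.

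**Figure D3:**
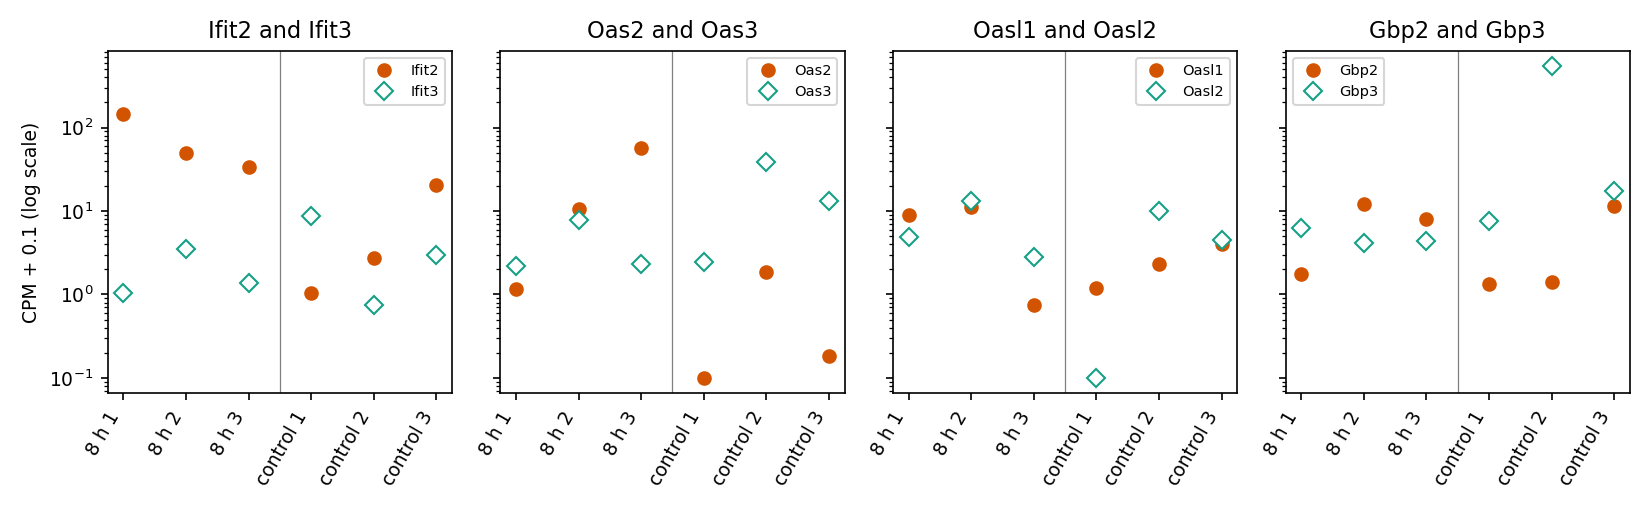
Levels of 4 pairs of neighbouring interferon genes in each library, as CPM + 0.1 on a log axis, with the 8 h libraries left of the vertical line and controls right of it. Ifit2 lies above Ifit3 in every 8 h library, Oas2 lies below Oas3 in every control, and the order of Gbp2 and Gbp3 changes between libraries.

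Of the 3 transcription factors, 2 were tested, and both had fitted values below 0. Irf9 (chromosome 14, 55603985 to 55610030), the DNA-binding subunit of the complex with STAT2, had 153, 89 and 71 counts at 8 h and 158, 391 and 322 in controls. Its level was 17.9, 6.51 and 11.4 CPM at 8 h, against 24.5, 85.7 and 26.2 CPM in controls. Every 8 h library lay below every control. The means were 11.9 ± 5.73 CPM at 8 h and 45.4 ± 34.9 CPM in controls (SD, n = 3 each). Irf9 did not pass, at a log2 fold change of -1.95 ± 1.76 (SE; edgeR adjusted p = 0.776), which ran from -2.39 to -1.31 when each library was left out.

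Irf7, the factor that amplifies interferon alpha transcription, had 37, 39 and 9 counts at 8 h and 12, 30 and 13 in controls. Its level was 4.33, 2.85 and 1.44 CPM at 8 h, against 1.86, 6.57 and 1.06 CPM in controls, in overlapping groups. The log2 fold change of -0.10 ± 1.36 (SE; edgeR adjusted p = 0.993) changed sign under limma-voom, the replicate block and without control 2 or 8 h replicate 3. Stat2 had 2, 12 and 1 counts at 8 h and 3, 3 and 5 in controls and was not tested.

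The Ifit family includes proteins that bind viral RNA lacking the methylation marks of host messages, though not every member does so. Ifit2 (chromosome 19, 34550550 to 34576534) had 1225, 671 and 208 counts at 8 h and 6, 12 and 250 counts in controls. Its level was 143, 49.1 and 33.3 CPM at 8 h, against 0.930, 2.63 and 20.3 CPM in controls. Every 8 h library stood above every control, with control 3 nearest to them. The log2 fold change was 3.09 ± 1.86 (SE; edgeR adjusted p = 0.644) and was 5.45 without control replicate 3. Ifit3, whose gene lies 6.59 kb away, had 0.937, 3.36 and 1.28 CPM at 8 h and 8.67, 0.657 and 2.84 CPM in controls. The groups overlapped, with a log2 fold change of -1.29 ± 1.42 (SE; edgeR adjusted p = 0.828) that was -0.05 without control replicate 1. Ifit1, the third gene of the cluster, had 5, 13 and 21 counts at 8 h and 0, 140 and 1 in controls and was not tested. The 3 genes of the cluster were highest in 3 different libraries, Ifit2 in 8 h replicate 1, Ifit3 in control 1 and Ifit1 in control 2. Ifit3 has a close copy in Ifit3b, and its counts are uncertain for that reason.

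Isg15 (chromosome 4, 156199424 to 156200818) encodes a ubiquitin-like protein that is attached to other proteins during the response. It had 197, 169 and 104 counts at 8 h and 61, 50 and 7 in controls. Its level was 23.1, 12.4 and 16.7 CPM at 8 h, against 9.45, 11 and 0.569 CPM in controls. Every 8 h library was above every control, but 8 h replicate 2 and control 2 lay close together. The means were 17.4 ± 5.39 CPM at 8 h and 6.99 ± 5.61 CPM in controls (SD, n = 3 each). Its fitted log2 fold change was 1.25 ± 1.71 (SE; edgeR adjusted p = 0.867), and 0.73 without control replicate 3. Usp18, the protease that removes Isg15 and dampens receptor signalling, had 28.8, 39.5 and 236 CPM at 8 h and 52.5, 149 and 10.6 CPM in controls. Its groups overlapped, with a log2 fold change of 0.45 ± 1.78 (SE; edgeR adjusted p = 0.964), and the sign turned to -0.94 without 8 h replicate 3 and to -0.04 when control replicate 3 was left out. Trim25, the ubiquitin ligase that acts on RIG-I, had at most 6 counts in any library.

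Interferon-inducible GTPases of the Gbp and Irg families take part in defence against intracellular pathogens and respond to interferon gamma as well as to type I interferon. Irgm1 (chromosome 11, 48865245 to 48871420) had 1199, 552 and 3297 counts at 8 h and 17, 97 and 269 in controls. Its level was 140, 40.4 and 528 CPM at 8 h, against 2.63, 21.3 and 21.9 CPM in controls. All 8 h libraries stood above all controls, though they spread over 13.1-fold among themselves. The log2 fold change was 3.81 ± 2.05 (SE; edgeR adjusted p = 0.611; DESeq2 adjusted p = 0.0525), and 2.55 without 8 h replicate 3.

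Gbp3 (chromosome 3, 142560016 to 142573213) had values on the other side, with 53, 55 and 27 counts at 8 h and 49, 2469 and 211 in controls. Its level was 6.21, 4.02 and 4.32 CPM at 8 h, against 7.59, 541 and 17.1 CPM in controls. Every 8 h library lay below every control, but the size of the difference came from control 2. The log2 fold change was -5.18 ± 2.14 (SE; edgeR adjusted p = 0.503), and -1.57 without control replicate 2. Gbp2, 47.5 kb away, had 1.64, 12.1 and 8.01 CPM at 8 h and 1.24, 1.31 and 11.3 CPM in controls, in overlapping groups. Genes of the Gbp family are similar in sequence, which leaves their counts uncertain.

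Igtp, a GTPase of the Irg family, took most of the set's counts in 3 of 6 libraries. It had 26774, 492 and 1722 counts at 8 h and 15784, 1391 and 109569 in controls. It made up 71.7%, 2.62% and 20.5% of the set's counts at 8 h and 83.0%, 16.9% and 97.5% in controls. Its level was 3136, 36 and 276 CPM at 8 h, against 2445, 305 and 8906 CPM in controls. The groups overlapped, with a log2 fold change of -1.93 ± 2.38 (SE; edgeR adjusted p = 0.850) that was -4.94 without 8 h replicate 1, and -0.42 when control replicate 3 was left out. Mx2, an antiviral GTPase of the dynamin superfamily, had 7.03, 9.29 and 0.641 CPM at 8 h and 12.9, 1.75 and 2.11 CPM in controls.

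Among the 12 other effectors, 7 were tested, 5 with fitted values above 0 and 2 below, and the groups overlapped for each of the 7. Bst2, or tetherin, which holds budding virions at the cell surface, had 1625, 3870 and 45 counts at 8 h and 136, 59 and 315 in controls. Its level was 190, 283 and 7.21 CPM at 8 h, against 21.1, 12.9 and 25.6 CPM in controls. The first and second 8 h libraries stood above every control, and the third below all of them. Bst2 had a log2 fold change of 2.91 ± 1.93 (SE; edgeR adjusted p = 0.674), which ran from 2.18 to 3.51 when each library was left out. Bst2 is also a marker of plasmacytoid dendritic cells, which make much type I interferon. The 9 markers of these cells in the table, Bst2 among them, took 0.0268%, 0.0316% and 0.00159% of counts at 8 h and 0.00978%, 0.00294% and 0.00666% in controls. Bst2 itself gave 1625, 3870 and 45 of their 2285, 4322 and 99 counts at 8 h. Tcf4, a factor that defines these cells, had 0 or 1 counts in every library, at 0 in 1 of the 8 h libraries and 2 controls, and Siglech was not matched. Ccr9 was at 0 in 1 control and Ly6d in 1 of the 8 h libraries. Of the others, Tlr7 had 8, 104 and 0 counts at 8 h and 369, 33 and 7 in controls. Tlr9 had 31, 181 and 9 counts at 8 h and 7, 6 and 99 in controls. For Irf8 there were 4, 97 and 8 counts at 8 h and 5, 4 and 5 in controls. The part of plasmacytoid dendritic cells in the level of Bst2 was not tested.

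Isg20, an exonuclease that degrades single-stranded RNA, had 3.51, 7.90 and 13.9 CPM at 8 h and 105, 44.3 and 9.59 CPM in controls. Its log2 fold change was -2.83 ± 1.83 (SE; edgeR adjusted p = 0.670), and -1.64 without control replicate 1. Parp14, an ADP-ribosyltransferase, had 33.0, 3.29 and 3.20 CPM at 8 h and 100, 52.8 and 7.15 CPM in controls, with a log2 fold change of -2.12 ± 1.78 (SE) that was -4.15 without 8 h replicate 1, and -1.10 when control replicate 1 was left out. In both genes control 1 was the highest library. Ifi35 had 515, 24.1 and 3.52 CPM at 8 h and 47.9, 47.8 and 6.50 CPM in controls. Its log2 fold change was 2.36 with all libraries and -1.30 without 8 h replicate 1. Ifi27l2a had 15.6, 696 and 52.4 CPM at 8 h and 32.7, 408 and 12.6 CPM in controls. Its log2 fold change of 0.89 became -2.13 without 8 h replicate 2. Single libraries therefore set the sign of the fitted value in both. Ifi44 had 20.9, 0.366 and 1.76 CPM at 8 h and 0.155, 6.14 and 2.36 CPM in controls. Cxcl10, the chemokine that attracts CXCR3-bearing T cells, had 2.93, 12.5 and 2.08 CPM at 8 h and 11.5, 3.29 and 0.406 CPM in controls. Rsad2, or viperin, had 2, 4 and 44 counts at 8 h and 16, 5 and 1 in controls, and Rtp4 had 3, 67 and 1 counts at 8 h and 0, 2 and 121 in controls. Neither of these last genes was tested.

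**Figure D4:**
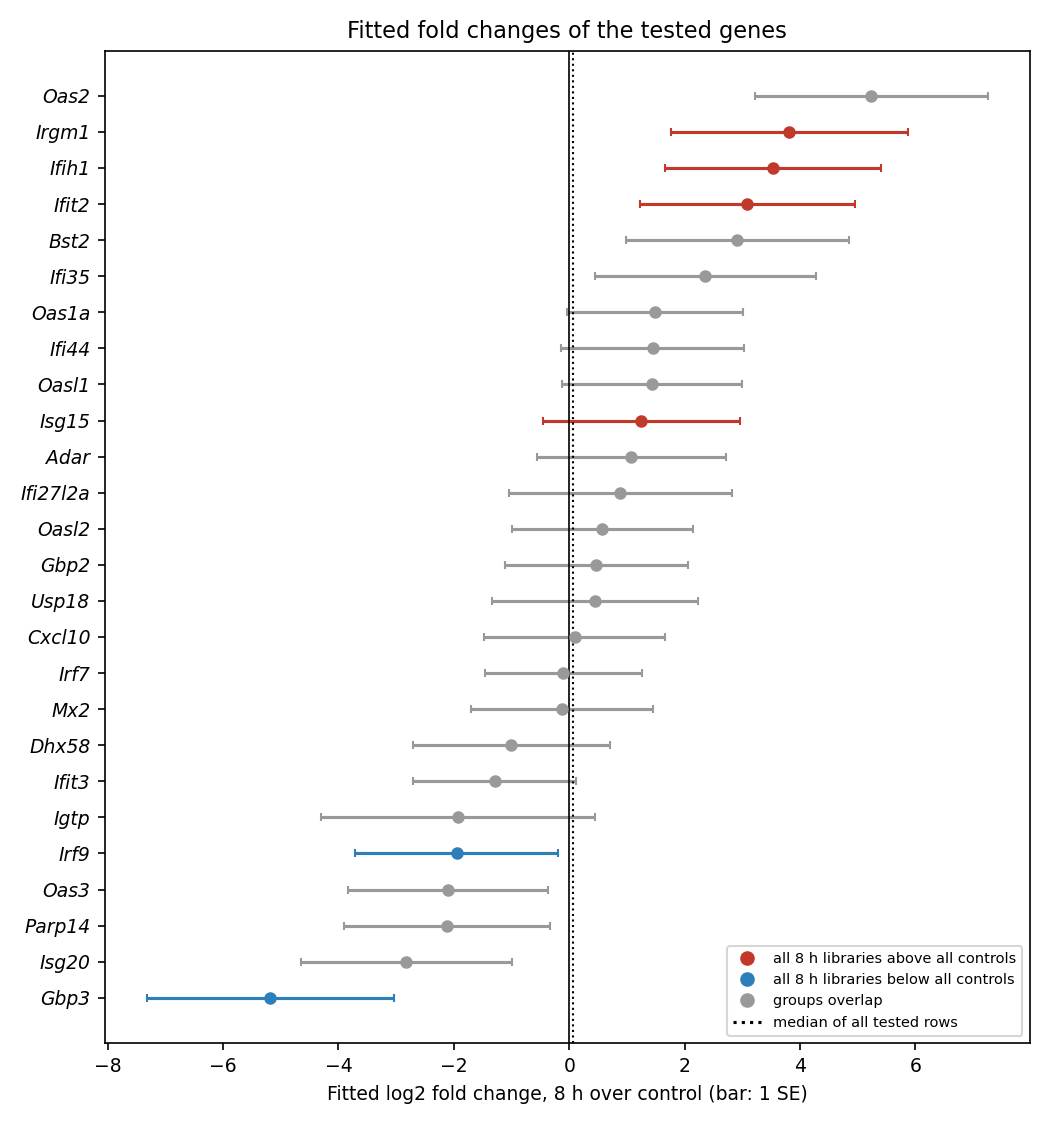
Fitted log2 fold changes of the 26 tested genes, 8 h over control, with bars of 1 SE, ordered by size. Red marks the 4 genes with all 8 h libraries above all controls, blue the 2 genes with all of them below, grey the overlapping ones, and the dotted line the median of all tested rows at 0.06. Oas2 and Gbp3 lie at the ends, at 5.23 and -5.18.

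The genes also varied widely within each group. The highest library of a group exceeded the lowest by a median of 9.25-fold at 8 h and 12.9-fold in controls over the 26 genes, against 11.7-fold and 11.8-fold over all tested rows. Over 10-fold spread within at least 1 group was seen for 22 of the 26 genes, and under 3-fold in both groups for 0. The same counts were not taken over all tested rows, so they do not set the genes apart. By the medians, the genes spread within a group about as much as all tested rows did.

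The genes did not peak in 1 library together. The highest library was 8 h replicate 1, 2 or 3 for 4, 8 and 4 genes and control 1, 2 or 3 for 5, 4 and 1 genes. Replicate 2 at 8 h held the highest level for 30.8% of the 26 genes and 17.9% of all tested rows, and control 3 for 3.85% and 15.2%. The lowest level fell in control 1 for 8 genes, or 30.8%, against 21.5% of all tested rows. As a share of the library, the 34 genes took 0.437%, 0.137% and 0.134% of counts at 8 h and 0.294%, 0.181% and 0.914% in controls. Without Igtp, the other 33 genes took 0.124%, 0.134% and 0.107% at 8 h and 0.0499%, 0.150% and 0.0233% in controls. The summed 8 h shares then lay close together, while those of the controls lay on either side of them. Different genes made up these 8 h sums. Ifi35 gave 4393 of 10569 counts in 8 h replicate 1, Ifi27l2a 9524 of 18308 in replicate 2 and Irgm1 3297 of 6672 in replicate 3.

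**Figure D5:**
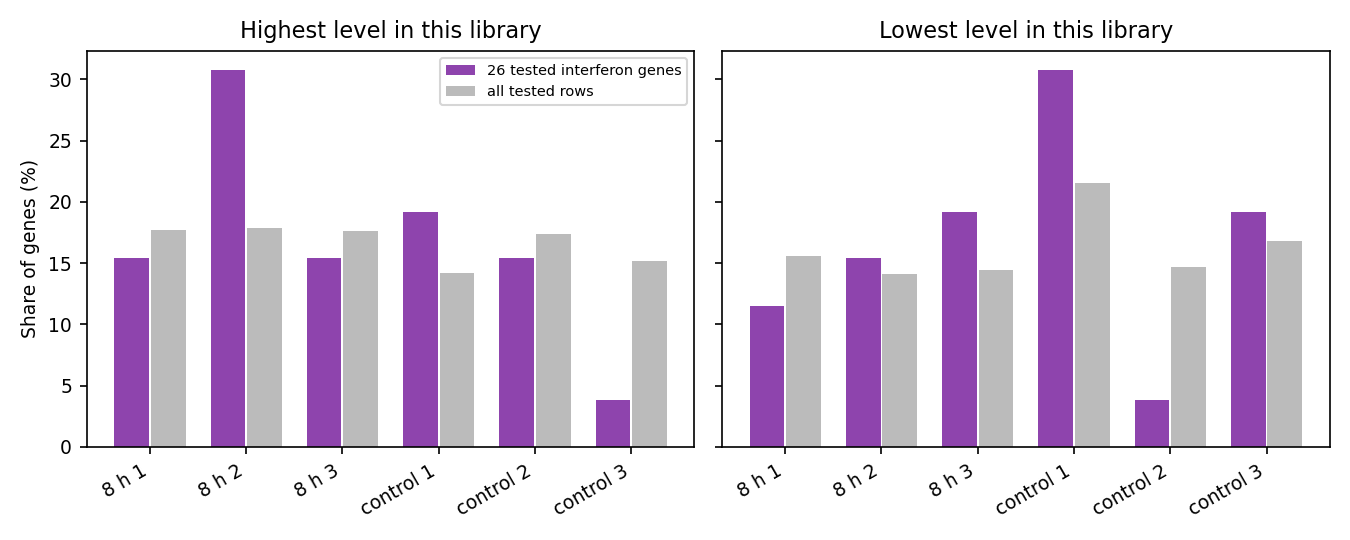
Share of genes, in percent, whose highest level (left panel) or lowest level (right panel) fell in each library, for the 26 tested interferon genes and for all tested rows. Among the interferon genes, 8 h replicate 2 held the highest level for 30.8% and control 1 the lowest level for 30.8%, and control 3 held the highest for 3.85%.

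The rest of the pathway was read from 5 further lists, of interferon ligands, receptors and signal transducers, adaptors of the sensors, inhibitors and other induced genes, holding 107 genes in the table outside the set. Of these, 72 were tested and 0 passed edgeR's test. An unadjusted p under 0.05 was reached by 4, or 5.56%, against 8.53% of all tested rows. Fitted values were above 0 for 30 and below 0 for 42, with a median of -0.28, whereas the median of the set was 0.52. DESeq2 called 2 of the 72, Ifng and B2m, or 2.78%, against 4.8% of all tested rows. Groups did not overlap for 3, or 4.17%, against 10.9%.

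Among the ligands, 8 of 11 in the table were tested. Ifng, the single type II interferon, had 405, 428 and 333 counts at 8 h and 5, 8 and 38 in controls, and its DESeq2 adjusted p was 0.00437, against an edgeR adjusted p of 0.538. Every 8 h library stood above every control. Of the type I receptor genes, Ifnar1 had 33, 202 and 98 counts at 8 h and 14, 46 and 30 in controls, with a log2 fold change of 1.21 ± 1.65 (SE; edgeR adjusted p = 0.866), and Ifnar2 had 12, 27 and 4 counts at 8 h and 5, 12 and 7 in controls. Tyk2 had 15, 49 and 615 counts at 8 h and 247, 45 and 416 in controls, in overlapping groups. Jak1 had 4, 7 and 6 counts at 8 h and 7, 6 and 17 in controls, too few to be tested.

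Of 52 other induced genes, 40 were tested, 12 with fitted values above 0 and 28 below, with a median of -0.62. B2m, the light chain of MHC class I, had 10, 14 and 7 counts at 8 h and 148, 42 and 123 in controls, so that every 8 h library lay below every control. Its log2 fold change was -3.81 ± 1.83 (SE; edgeR adjusted p = 0.544; DESeq2 adjusted p = 0.0127). Psmb10, a catalytic subunit of the immunoproteasome that cuts peptides for MHC class I, had 4009, 14517 and 11948 counts at 8 h and 132, 267 and 3407 in controls. Its log2 fold change was 3.09 ± 2.27 (SE; edgeR adjusted p = 0.714), and all 8 h libraries lay above all controls. The other catalytic subunits of the immunoproteasome in the list had fitted values below 0, at a log2 fold change of -2.11 ± 2.33 (SE; edgeR adjusted p = 0.829) for Psmb8 and of -2.94 ± 2.27 (SE; edgeR adjusted p = 0.733) for Psmb9. Of the adaptors, 10 of 16 in the table were tested, and of the inhibitors, 7 of 15, and in each of those lists 0 had an unadjusted p under 0.05 and 0 were called by DESeq2.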

How the data were processed

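Total RNA of mouse CD4+ T cells, extracted with a PAXgene kit, went into TruSeq libraries from Illumina, per the labels' protocols. Gene expression was deposited as 1 table of whole-number counts per RefSeq transcript accession, used as the authors gave it. The submitters' processing notes list Bowtie, R 3.4.2 and GRCm38 and state no role for any of them. The counting program, strand, any row filter and the handling of reads with several matches were not given in the sources used here. Columns were matched to samples by title, with 0 columns left over.

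Accessions were named through RefSeq (GRCm38.p6; 12827 accessions) or GENCODE M21 (47 more), and 303 stayed unnamed. Differences were fitted in R 4.3.3 with edgeR 4.0.16: TMM scaling, filterByExpr (8308 of 13177 rows kept), the default quasi-likelihood form with robust settings, and Benjamini-Hochberg adjustment over all tested rows at 0.05. An SE is the size of the log2 fold change divided by the root of its F statistic. CPM used library totals. DESeq2 1.42.0 and limma 3.58.1 were alternatives. Alternatives also covered scaling, low-count filters, a replicate block and leaving out each library. The fit was tested on simulated counts: at the spread of these libraries edgeR recovered none of the genes simulated as changed, and most of DESeq2's calls were genes simulated as unchanged, whereas at a much smaller spread edgeR recovered all of them. Libraries held 4564010 to 13675127 counts. Per-library values were given in full for sensors, factors, Usp18, genes whose groups did not overlap, genes with a low p and the 6 largest differences, and the choice of other genes named was made with their values known. The genes and lists were chosen with earlier results of these data known.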

Additional observations from a re-analysis of the deposited data

How the results depend on the processing

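The newer quasi-likelihood form was added after seeing the data. EdgeR called 0 genes of the whole table and 0 interferon genes under RLE, upper-quartile or no scaling, without a filter or with one on mean CPM, under the newer form, with the replicate block and without each replicate (0 to 0). limma-voom also called 0, with 403 genes at an unadjusted p under 0.05, against 709 in edgeR, whereas DESeq2 called 399 genes, 2 of them interferon genes. The cause of this difference was not tested. With the replicate block the median log2 fold change of the interferon genes was 0.36, against 0.52 without it, and it ran from -0.29 to 0.79 without each replicate. The block left 267 of the table's genes at an unadjusted p under 0.05, against 709. Deviations of same-numbered libraries correlated at -0.0107, 0.0151 and -0.0039, so the numbers were not taken to pair the samples, and not every library correlated best with its own number. The count of genes whose groups did not overlap was 6 under each scaling and 7 to 9 without each replicate, or 26.9% to 34.6%, where 20.5% to 21.6% of all tested rows then did not overlap. Fitted values of 12 of the 26 genes changed sign under at least 1 of the alternatives that gave them a value, and those of 14 under none of these. There were 15 alternatives, but Ifit3, Oas1a, Oasl1 and Irf7 did not pass the filter on mean CPM, and DESeq2 gave no p for Gbp3 and Ifi27l2a. At this depth 5 of the 34 genes averaged under 10 counts a library, which limits what could be detected.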

Other observations

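Several type I interferon genes had most of their counts in 1 library. Ifnb1 had 1, 15 and 15 counts at 8 h and 1, 464 and 20 in controls, with a log2 fold change of -4.77 ± 1.99 (SE; edgeR adjusted p = 0.510). Ifna9 had 41, 1 and 5 counts at 8 h and 7, 7 and 1165 in controls, while Ifna2 had 0, 1434 and 1 counts at 8 h and 7, 6 and 41 in controls. Among inducers of the response, Irf1 had 2634, 23233 and 798 counts at 8 h and 55, 2391 and 74 in controls, in overlapping groups. These genes were picked once their values were known. Ifna2 was not tested, none of the others passed edgeR's threshold, and DESeq2 gave no adjusted p for Ifnb1 and Ifna9 and 0.521 for Irf1.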
